A study of Mus musculus with 4 samples.

Results

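The genes described here make, sense and move sterols and fatty acids in primary fibroblasts grown from mouse embryos. The 38 genes were taken from a fixed list of symbols, out of 23235 symbols in the expression tables, and all 38 were listed there. The list was drawn up with earlier results of these data known. They fall into 6 roles, namely the mevalonate arm of cholesterol synthesis (7 genes), the sterol arm that follows it (10), the SREBP regulators (5), fatty acid synthesis and desaturation (8), the liver X receptors with their efflux targets (5) and sterol transport inside the cell (3). Poly(A)-selected RNA was sequenced in 4 libraries of the C57BL/6 strain, 1 per genotype. The genotypes are labelled Wild-type, Gadd45-/-, G3 Terc-/- and G3 Gadd45-/-Terc-/- (dKO), and the series text names the Gadd45 gene as Gadd45a. Terc encodes the template RNA of telomerase, and G3 marks the third generation of mice bred without it. No drug, dose or age is given, nor how many embryos each culture came from. The comparisons ask what either loss goes with, alone and on top of the other.

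Cholesterol is built from acetyl-CoA through mevalonate, isoprenoid diphosphates and squalene to lanosterol, which is then trimmed to cholesterol. The transcription factor SREBP-2, encoded by Srebf2, drives most genes of this path when membranes are poor in sterol, and SREBP-1, encoded by Srebf1, drives fatty acid synthesis and desaturation. Scap escorts both factors out of the endoplasmic reticulum, and the Insig proteins hold Scap back when sterol is plentiful. The liver X receptors (LXR) bind oxysterols and raise the exporters Abca1 and Abcg1, so that synthesis and export are usually turned in opposite directions.

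Sequence upstream of the start sites is shown for 4 genes, to let the shared elements of this pathway be seen beside the values. Hmgcs1 is shown as the one sterol synthesis gene of the RefSeq promoter table with the letters TCACNCCAC, the core of a classical sterol regulatory element. Insig1, Lss and Elovl6 are shown as the members with the largest differences between the libraries labelled G3 Terc-/- and wild type, a choice made after their values were seen. Each run is the 250 bases before a start in the RefSeq promoter table, on the gene's strand, in the build GRCm38.p6. For Lss the RefSeq gene begins at 76531565, so the end of its run lies inside the annotated gene. All 4 genes lie on the plus strand, at chr13:119690101-119690350, chr5:28071162-28071411, chr10:76531355-76531604 and chr3:129532136-129532385 in that order. Capitals mark TCACNCCAC, CCAAT (bound by NF-Y), CACGTG (an E-box) and GGGCGG (bound by Sp1) on either strand, so that CCAAT also shows as ATTGG and GGGCGG as CCGCCC.
Hmgcs1: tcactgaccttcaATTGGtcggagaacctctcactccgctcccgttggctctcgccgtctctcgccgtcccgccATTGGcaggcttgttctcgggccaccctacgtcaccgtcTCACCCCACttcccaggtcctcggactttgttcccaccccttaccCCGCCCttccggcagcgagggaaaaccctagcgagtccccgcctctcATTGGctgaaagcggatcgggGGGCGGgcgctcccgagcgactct
Insig1: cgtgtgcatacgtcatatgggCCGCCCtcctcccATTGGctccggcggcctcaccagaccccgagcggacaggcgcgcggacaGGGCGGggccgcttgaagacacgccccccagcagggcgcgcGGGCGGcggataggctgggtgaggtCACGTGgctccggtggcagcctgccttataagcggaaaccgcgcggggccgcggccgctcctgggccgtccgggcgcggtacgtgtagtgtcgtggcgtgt
Lss: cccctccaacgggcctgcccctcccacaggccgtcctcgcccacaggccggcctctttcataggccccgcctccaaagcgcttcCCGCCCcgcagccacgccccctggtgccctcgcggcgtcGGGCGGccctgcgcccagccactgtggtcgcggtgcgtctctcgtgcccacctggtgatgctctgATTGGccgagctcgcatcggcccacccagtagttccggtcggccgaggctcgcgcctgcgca
Elovl6: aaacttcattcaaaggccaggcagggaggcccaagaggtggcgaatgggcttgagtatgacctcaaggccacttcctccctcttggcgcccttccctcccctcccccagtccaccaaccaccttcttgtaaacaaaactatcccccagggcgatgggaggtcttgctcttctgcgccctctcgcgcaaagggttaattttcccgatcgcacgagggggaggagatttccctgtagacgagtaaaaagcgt

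The Hmgcs1 window held TCACNCCAC once, beginning 137 bases before the start, with 3 CCAAT and 2 GGGCGG matches. Insig1 held 1 CCAAT, 1 CACGTG and 3 GGGCGG, and Lss held 1 CCAAT and 2 GGGCGG. None of the letters was found in the Elovl6 window. Of the 17 sterol synthesis genes 14 were in the RefSeq promoter table, and CCAAT was found for 13 of these, GGGCGG for 13, CACGTG for 3 and TCACNCCAC for 1. Among the 8311 genes in the table with a mean FPKM of 1 or more, 41.0% held CCAAT, 66.3% GGGCGG, 10.1% CACGTG and 1.24% TCACNCCAC in a window of the same length. Of all 32851 windows of the table the shares were 33.8%, 32.7%, 6.02% and 1.05%. Some genes have several windows in this table, and a match is a run of letters, not a shown binding site.

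Values are FPKM as deposited, a unit that counts fragments per length of transcript and per mapped fragments of the library. From the lowest values, where single fragments show as steps, the depth came to about 19.6 to 19.9 (in units of 1e6 fragments) per library. In the order wild type, Gadd45-/-, G3 Terc-/- and G3 dKO, Gadd45a had values of 22.9, 33.9, 31.4 and 45.1 FPKM. It was not lower where the label gives its deletion, so every genotype below is the label's, not one shown by the data. Terc, a short RNA without a poly(A) tail, had values of 0.53, 0.259, 0 and 0 FPKM. The library labelled Gadd45-/- held Y-linked transcripts (Ddx3y at 16.4 FPKM) and little Xist (0.154 FPKM), whereas the others held Xist at 24.0 to 34.1 FPKM, so sex differed along with genotype wherever this library was used. Fibroblast genes were abundant everywhere (Col1a1 at 1697 to 4565 FPKM). Of 9 macrophage markers 6 stayed under 1 FPKM in every library, the list's sum lying between 5.30 and 18.3 FPKM. Of 7 adipocyte markers 3 were listed at 0 in all libraries, including Plin1 and Lep, while Fabp4 stood at 4.57, 5.84, 32.2 and 7.34 FPKM. Pparg stood at 1.61, 2.24, 0.766 and 1.18 FPKM and Cebpa at 2.44, 3.43, 2.29 and 5.45 FPKM. Of 5 hepatocyte markers, whose sums were 12.2, 1.92, 4.87 and 2.08 FPKM, Alb stood at 5.40 FPKM in wild type and at 0.331 FPKM or less elsewhere. Apoa1 (1.90, 0, 0.0649 and 0 FPKM) and Ttr (1.01, 0, 0 and 0 FPKM), with means under 1 FPKM, were also highest in wild type. Afp was at 0.0272 FPKM in wild type and at 0 elsewhere. Apoa2, the other measured one, differed from Alb in order, at 3.88, 1.89, 4.48 and 2.06 FPKM, and was highest in G3 Terc-/-. All 5 endothelial markers were under 1 FPKM in every library. Of 5 epithelial markers, with sums of 20.6, 16.9, 9.04 and 17.8 FPKM, Epcam and Cdh1 were at or near 0 and 3 were measured. Krt8 stood at 3.04, 0.531, 0.0633 and 0.626 FPKM and Krt18 at 5.52, 2.09, 1.48 and 1.22 FPKM. Both were highest in wild type. Both were called lower than wild type in the libraries labelled Gadd45-/- and G3 Terc-/-, where 0.198% and 6.24% of all genes were lower. Krt19, the most abundant of the list, stood at 12.0, 14.3, 7.37 and 15.9 FPKM and was not called in either of these comparisons. The part of these marker lists in the results below was not tested.

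Differences are of log2(FPKM + 1) between single libraries. A gene is called higher or lower at a difference of 1 or more in size, that is 2-fold in FPKM + 1. With 1 library per genotype there is no test, no error and no p-value, and the spread between cultures of 1 genotype is unknown. Of the 38 genes 36 had a mean FPKM of 1 or more and are counted as measured. Nr1h3 fell under that limit, and Hmgcs1, the second enzyme of the mevalonate arm, was listed at 0 in all 4 libraries. Since a 0 of this kind can come from a failed estimate, no difference is given for Hmgcs1.

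All 16 measured sterol synthesis genes and all 8 fatty acid genes had the lowest of their 4 values in the library labelled G3 Terc-/-. The share of all measured genes with their lowest value in this library was not computed. Between this library and wild type 18 of the 36 measured members were called lower and 1 higher, where 6.24% of all 11590 measured genes were lower and 9.93% higher. The median difference was -1.02 for the members and 0.006 for all genes. Because the list was chosen with earlier results of these data known, its contrast with all genes may partly follow from that choice. The 16 measured sterol synthesis genes had a median of -1.36 with 11 called lower, and the 8 fatty acid genes one of -1.17 with 5 called lower. The 4 measured LXR and efflux genes had a median of 0.50 with none called. Of these 3 stood higher in the library labelled G3 Terc-/-, and Mylip (-0.54) stood lower. With only genes of a mean FPKM of 5 or more, 2 of these 4 are left and their median is -0.024.

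**Figure D1:**
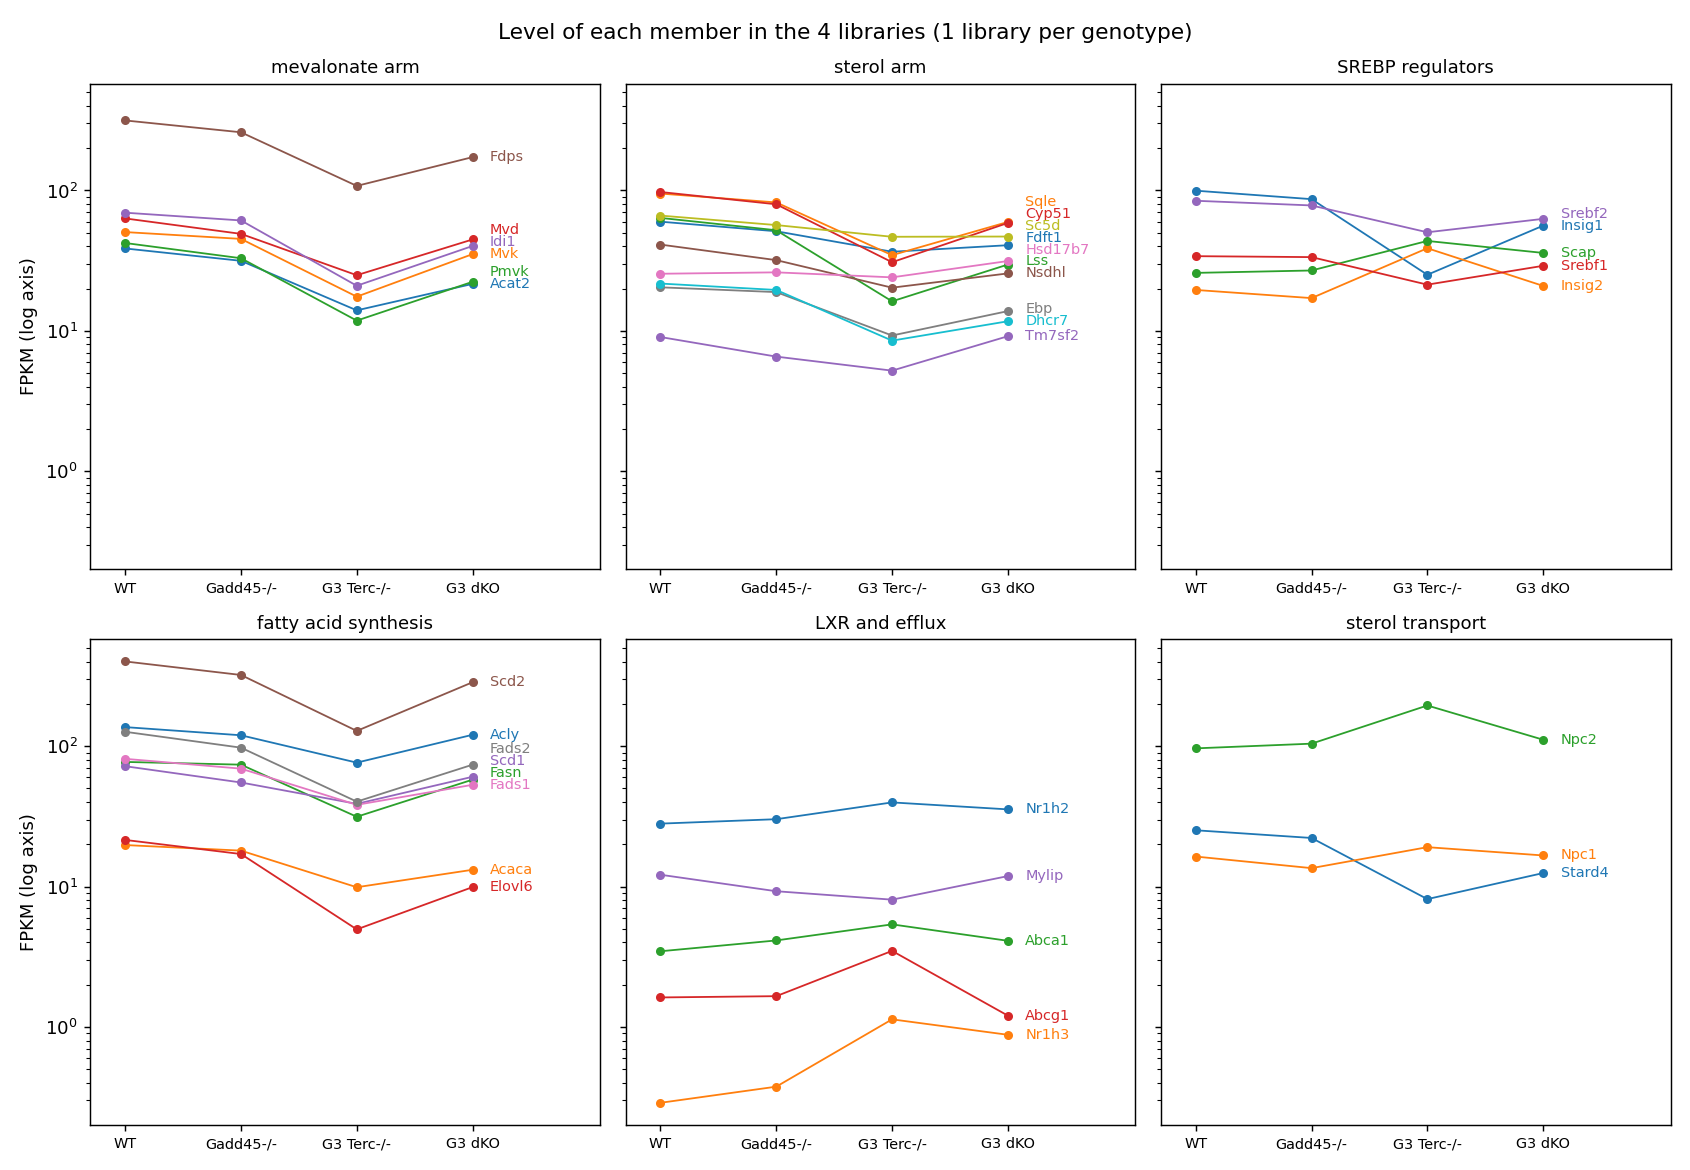
Level of each member in FPKM (log axis) in the 4 libraries, in 1 panel per role; lines join the values of 1 gene and have no error, and Hmgcs1, listed at 0, is not drawn. In the mevalonate arm every measured gene has its lowest point in the library labelled G3 Terc-/-, as have the 8 fatty acid genes, while Insig2, Scap, Npc2 and Abcg1 have their highest there.

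In the mevalonate arm all 6 measured genes were called lower in the library labelled G3 Terc-/- than in wild type. Values below are given in the order wild type, Gadd45-/-, G3 Terc-/- and G3 dKO, and a number in parentheses after them is the difference of log2(FPKM + 1), G3 Terc-/- minus wild type. Fdps, which makes farnesyl diphosphate and was the most abundant sterol gene, stood at 315, 259.8, 108 and 173 FPKM. Its G3 Terc-/- value was the lowest, 2.93-fold below wild type, and the dKO value lay between them. Pmvk, which adds the second phosphate to mevalonate, stood at 42.2, 32.9, 11.8 and 22.4 FPKM and had the largest difference of the arm (-1.75). Idi1, the isopentenyl diphosphate isomerase, stood at 69.5, 61.2, 21.0 and 40.2 FPKM (-1.68). The order of the libraries was the same for these 3 genes, with wild type first and G3 Terc-/- last. Mvk, mevalonate kinase, stood at 50.5, 45.2, 17.5 and 35.2 FPKM (-1.48), and Mvd, the decarboxylase that yields isopentenyl diphosphate, at 63.2, 49.1, 24.9 and 44.8 FPKM (-1.31). Acat2, the cytosolic thiolase that opens the path, stood at 38.6, 31.5, 14.0 and 21.6 FPKM (-1.40). Acat2 has a near-identical copy, Acat3, listed at 19.4, 17.1, 12.1 and 13.1 FPKM, so its value is uncertain to the extent that reads of the 2 copies were shared out.

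The sterol arm was less even, with 5 of 10 genes called lower and a median of -1.02. Lss, which closes the ring to lanosterol, stood at 63.8, 52.1, 16.2 and 29.7 FPKM, 3.93-fold lower in the library labelled G3 Terc-/- than in wild type. Cyp51, the lanosterol demethylase, stood at 97.5, 79.7, 30.8 and 58.7 FPKM (-1.63), and Sqle, squalene epoxidase and a slow step of the path, at 95.1, 82.2, 34.6 and 59.7 FPKM (-1.43). All 3 were called lower and had their minimum in the same library as the mevalonate genes. Dhcr7, the last reductase before cholesterol, stood at 21.7, 19.6, 8.52 and 11.7 FPKM (-1.26), and Ebp, a sterol isomerase, at 20.4, 18.9, 9.27 and 13.8 FPKM (-1.06). Nsdhl, a dehydrogenase of the demethylation steps, missed the call narrowly at 41.2, 31.9, 20.3 and 25.7 FPKM (-0.98).

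The remaining 4 sterol arm genes were not called. Fdft1, squalene synthase and the branch point towards sterols, stood at 59.9, 51.2, 36.6 and 40.7 FPKM (-0.70). Sc5d, the sterol desaturase, stood at 66.2, 56.7, 46.8 and 47.0 FPKM (-0.49), with almost the same value in both G3 libraries. Tm7sf2, a sterol reductase, stood at 9.04, 6.55, 5.21 and 9.16 FPKM (-0.69), and its dKO value was as high as wild type. Hsd17b7, a 3-ketosteroid reductase, stood at 25.5, 26.1, 24.1 and 31.4 FPKM, so that the libraries labelled wild type, Gadd45-/- and G3 Terc-/- were alike (-0.082) and the dKO library was highest. Exons of Fdft1 overlap those of Ctsb on the opposite strand, which stood at 127, 133, 253 and 154 FPKM. Lss overlaps 4930483K19Rik (8.68, 6.59, 1.52 and 3.64 FPKM), and Cyp51 overlaps Akap9 (7.08, 6.03, 7.90 and 7.30 FPKM). Whether strand was used in counting is not given in the sources used here, so these values are uncertain to that extent.

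Among the regulators, the 2 Insig genes pointed in opposite directions. Insig1, itself a target of SREBP, stood at 99.7, 86.7, 25.1 and 56.1 FPKM, and was 3.97-fold lower in G3 Terc-/- than in wild type (-1.95). Insig2, which does the same work but is not driven by SREBP, stood at 19.6, 17.1, 38.8 and 20.9 FPKM. It was highest in the library labelled G3 Terc-/- and lay just short of the limit for a call (0.95). Insig1 thus exceeded Insig2 in FPKM in wild type, Gadd45-/- and dKO, and the reverse held in the library labelled G3 Terc-/-. Scap, the escort, stood at 25.9, 26.9, 43.7 and 35.9 FPKM (0.73), also highest there. Srebf2 stood at 84.5, 78.2, 50.4 and 62.8 FPKM (-0.73) and Srebf1 at 34.0, 33.5, 21.3 and 29.1 FPKM (-0.65), both lowest in that library but not called. Exons of Srebf1 overlap those of Rai1 (16.9, 16.6, 12.6 and 15.5 FPKM) on the opposite strand.

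All 8 fatty acid genes had their lowest value in the library labelled G3 Terc-/-. Elovl6, which lengthens palmitate, stood at 21.5, 17.1, 4.96 and 9.92 FPKM, a 4.34-fold difference between wild type and G3 Terc-/-. Scd2, the more abundant of the delta-9 desaturases here, stood at 402, 322, 129 and 286 FPKM (-1.64), the highest level of any member in wild type. Its neighbour on chromosome 19, Scd1, stood at 72.0, 55.2, 38.9 and 60.6 FPKM and was not called (-0.87). The 2 desaturases are similar in sequence, which makes the split of fragments between them uncertain. Fads2 and Fads1, the delta-6 and delta-5 desaturases of polyunsaturated fatty acids and also neighbours, stood at 127, 97.7, 40.3 and 73.9 FPKM (-1.63) and at 81.3, 69.2, 38.2 and 53.1 FPKM (-1.07). Within each pair the member with the higher wild-type level had the larger difference.

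Fasn, fatty acid synthase, stood at 77.3, 73.9, 31.4 and 57.8 FPKM and was called lower in G3 Terc-/- than in wild type (-1.27). Upstream of it, Acaca, acetyl-CoA carboxylase, stood at 19.8, 18.0, 9.90 and 13.2 FPKM (-0.93) and Acly, which supplies cytosolic acetyl-CoA, at 137, 119.7, 76.4 and 121 FPKM (-0.83). Neither passed the limit. The 2 genes nearest to acetyl-CoA and Scd1 had the smallest differences of the role, and Elovl6 the largest.

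LXR and efflux genes were few and mostly low. Nr1h2, the LXR beta gene, stood at 28.1, 30.2, 39.8 and 35.5 FPKM (0.49). Nr1h3, the LXR alpha gene, stood at 0.288, 0.376, 1.13 and 0.88 FPKM, which is about 11.2, 14.8, 44.0 and 34.8 fragments on its longest transcript. Both receptors were highest in the library labelled G3 Terc-/-. Abca1, which loads cholesterol onto apolipoprotein A-I, stood at 3.46, 4.14, 5.38 and 4.11 FPKM (0.52). Abcg1, which exports it to mature HDL, stood at 1.62, 1.66, 3.48 and 1.21 FPKM (0.77), or about 185, 192, 397 and 139.8 fragments. With a pseudocount of 0.1 FPKM its difference reached 1.06 and would be called. Mylip, a ubiquitin ligase that LXR induces, went the other way at 12.1, 9.27, 8.07 and 11.9 FPKM (-0.54), lowest in G3 Terc-/-.

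Sterol transport genes split as well. Npc2, which hands cholesterol to Npc1 in the lysosome, stood at 96.6, 104, 195 and 111 FPKM and was the one member called higher in G3 Terc-/- than in wild type (1.01). Npc1 stood at 16.4, 13.5, 19.1 and 16.7 FPKM (0.21), a narrow range. Stard4, a cytosolic sterol carrier and SREBP target, stood at 25.2, 22.2, 8.15 and 12.5 FPKM and was called lower (-1.52), like the synthesis genes.

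**Figure D2:**
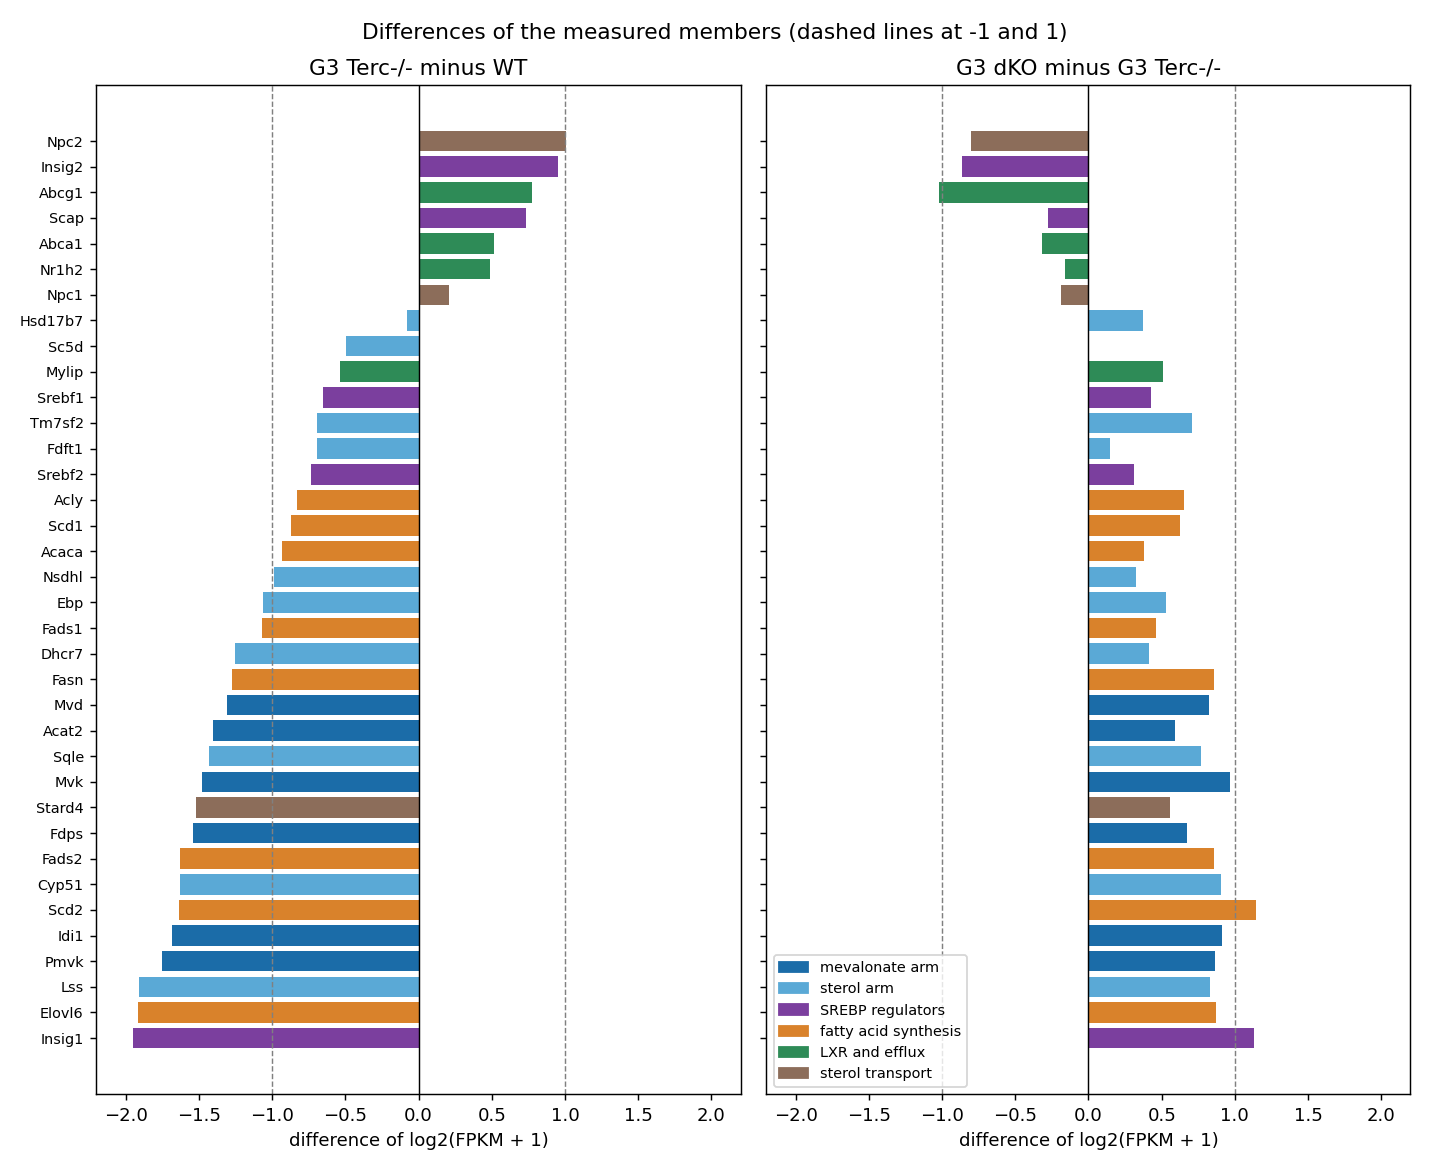
Difference of log2(FPKM + 1) for the 36 measured members, G3 Terc-/- minus wild type (left, sorted) and G3 dKO minus G3 Terc-/- (right, same order), coloured by role, with dashed lines at -1 and 1. Bars run from -1.95 for Insig1 to 1.01 for Npc2 on the left; the panels share the G3 Terc-/- library, which tends to give them opposite signs.

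The library labelled G3 dKO held more synthesis transcripts than the library labelled G3 Terc-/-, though few differences were large. Numbers in parentheses are now differences of log2(FPKM + 1), dKO minus G3 Terc-/-. Of 36 measured members 2 were called higher and 1 lower, where 1.52% of all genes were higher and 4.78% lower. Over all genes 176 were higher and 554 lower on the deposited scale, and 273 and 492 after quantile normalization. Scd2 (1.15, 2.22-fold) and Insig1 (1.13, 2.24-fold) were the higher ones and Abcg1 (-1.02) the lower one. Abcg1 lay close to the limit, and its call was lost under both other scalings. All 16 measured sterol synthesis genes had a positive difference, with a median of 0.69, where 46.2% of all genes were positive and their median was -0.031. The largest of the 16 was Mvk (0.97), which passed the limit under both other scalings, and the smallest was Sc5d (0.0056). The mevalonate arm had a median of 0.84 and the sterol arm one of 0.47. All 8 fatty acid genes were positive too (median 0.75), from Acaca (0.38) to Scd2. Insig2 (-0.86) and Npc2 (-0.80) stood lower in the dKO library without being called. This comparison shares the G3 Terc-/- library with the one before, so a value that is low there by itself gives a negative difference in the first and a positive one in the second.

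The libraries labelled Gadd45-/- and wild type, without Terc deficiency, were close. Numbers in parentheses are differences of log2(FPKM + 1), Gadd45-/- minus wild type. None of the 36 measured members was called in either direction, where 0.336% of all genes were higher and 0.198% lower. The differences were small but mostly to one side. Of the sterol synthesis genes 15 of 16 had a lower value in the library labelled Gadd45-/- (median -0.25), as had all 8 fatty acid genes (median -0.27), where 57.5% of all genes were lower and their median was -0.027. Tm7sf2 (-0.41), Scd1 (-0.38) and Fads2 (-0.37) had the largest of these differences, and Fasn (-0.064) the smallest of the fatty acid genes. Hsd17b7 (0.032) was the one sterol synthesis gene on the other side. Abca1 (0.20) was the highest member. The X-linked genes Nsdhl and Ebp differed by -0.36 and -0.11. Sex differed along with genotype in this pair, and its part in these values was not tested.

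Terc deficiency could be looked at a second time, between the libraries labelled G3 dKO and Gadd45-/-, which share no library with the pair G3 Terc-/- and wild type. Differences are dKO minus Gadd45-/-. None of the 36 measured members was called, where 2.49% of all genes were higher and 2.35% lower. In the dKO library 14 of 16 sterol synthesis genes were lower, with a median of -0.43. The fatty acid genes had one of -0.36 with 6 of 8 lower, where 51.1% of all genes were lower. Lss (-0.79), Stard4 (-0.78), Elovl6 (-0.73) and Dhcr7 (-0.69) had the largest differences, and Tm7sf2 (0.43) and Scap (0.40) were the highest of the measured members. Acly (0.012), Scd1 (0.13) and Mvd (-0.13) were near 0. Sex differed along with genotype in this pair.

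**Figure D3:**
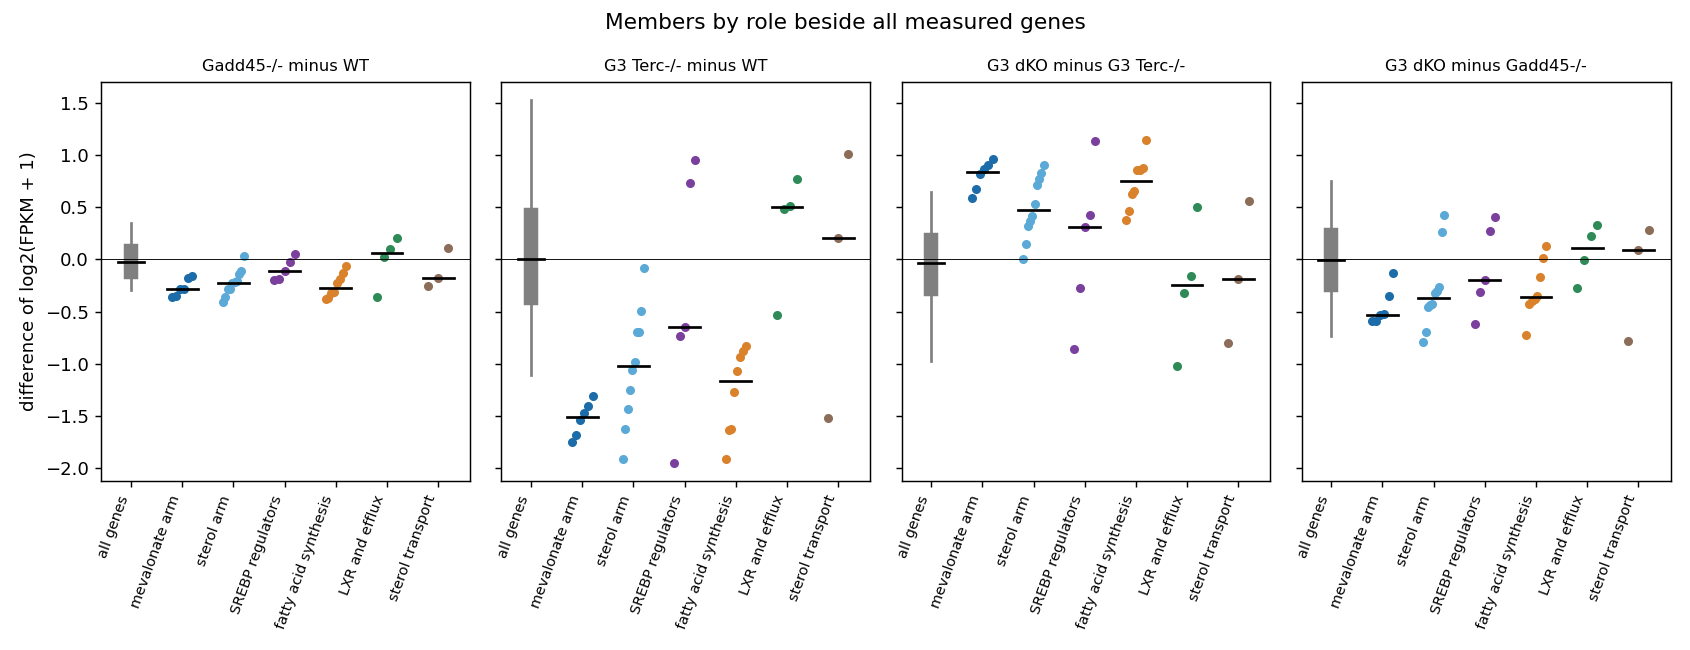
Differences of log2(FPKM + 1) of the measured members by role in the 4 comparisons; points are genes, black bars medians, and grey shows all 11590 measured genes (thick line, middle 50%; thin line, middle 90%). Mevalonate and fatty acid medians are -1.51 and -1.17 between G3 Terc-/- and wild type, and LXR and efflux genes lie above 0 except Mylip.

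For most synthesis genes the Gadd45 label went with opposite directions in the 2 settings, in comparisons that share no library. The differences without Terc deficiency were small, and none was called. A double difference (the G3 pair minus the Terc-proficient pair) had a median of 0.97 over the 16 sterol synthesis genes and 0.96 over the 8 fatty acid genes, against -0.0027 over all genes. It reached 1 in 7 of the 16 and 4 of the 8, where 1.92% of all genes reached 1. Scd2 (1.46), Insig1 (1.33), Fads2 (1.23) and Pmvk (1.22) had the largest values and Sc5d (0.23) a small one. Abcg1 (-1.04), Npc2 (-0.91) and Insig2 (-0.68) were negative. The double difference holds the G3 Terc-/- and wild-type values already compared above. A gene low in the first and high in the second tends towards these directions, so they are no separate support. The share of all genes with opposite directions was not computed. Each side of this contrast rests on 1 pair of cultures, and the difference between the sides was not tested.

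**Figure D4:**
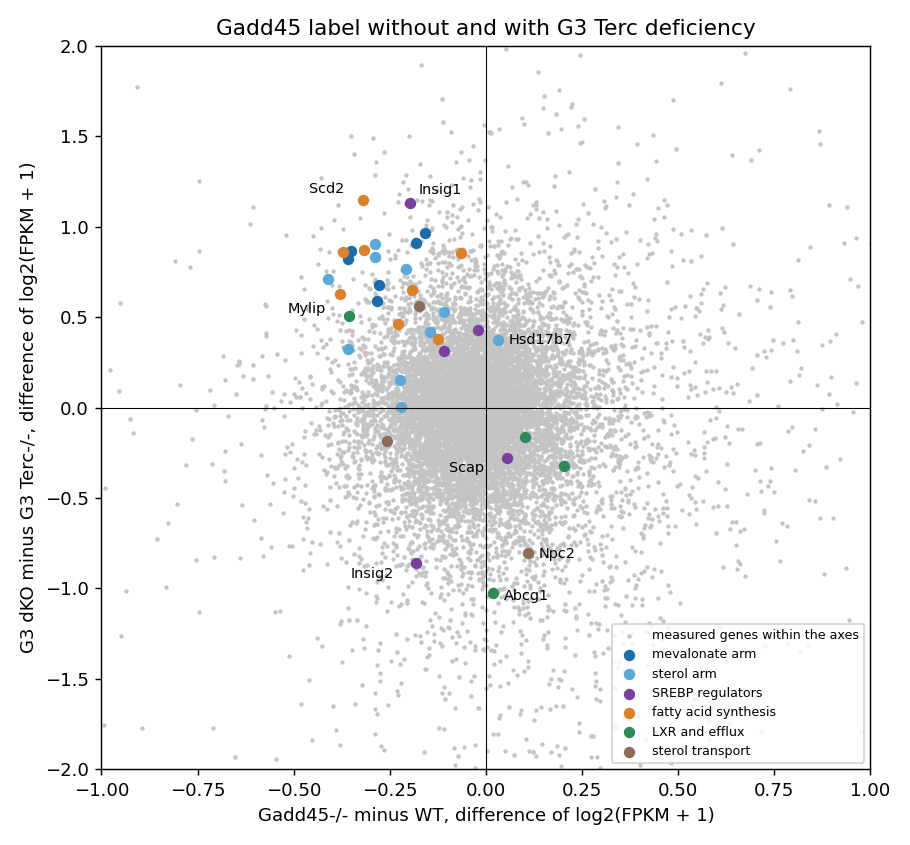
Difference of log2(FPKM + 1) for the Gadd45 label without Terc deficiency (x axis) and in G3 cells (y axis), which share no library; colours give roles and grey points measured genes inside the axes. Synthesis genes lie at the upper left, except Hsd17b7 just right of 0, whereas Abcg1 and Npc2 lie at the lower right and Insig2 at the lower left.

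Other genes of the same and adjoining paths were counted from lists that share no gene with the 38. These lists too were chosen with earlier results of these data known. Of 6 further sterol synthesis genes and SREBP-2 targets 5 were called lower in the library labelled G3 Terc-/- than in wild type and none higher. Over all measured genes 6.24% were lower and 9.93% higher in this comparison. Lpin1, a phosphatidate phosphatase on that list, was not called and went the other way at 7.93, 6.10, 13.05 and 6.01 FPKM. None of 9 genes of the SREBP processing machinery was called (median 0.22), the highest being Rnf145, a ubiquitin ligase, at 20.6, 21.7, 33.3 and 31.2 FPKM. Isoprenoid branch genes had 1 of 9 called lower, namely Pdss1, which makes the side chain of ubiquinone, at 5.05, 5.18, 1.38 and 2.38 FPKM. For lists of 9 genes, the counts of the processing machinery and the isoprenoid branch lie near the shares over all genes.

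Of 14 other measured genes of fatty acid and lipid synthesis 1 was called higher and 1 lower (median 0.027), a share each way near that of all genes (9.93% higher and 6.24% lower). The higher was Dgat2, which makes triglyceride, at 1.98, 2.32, 8.17 and 2.69 FPKM, and the lower Acsl3, an acyl-CoA ligase, at 20.4, 16.5, 7.19 and 12.4 FPKM. Fatty acid oxidation had 2 of 17 called higher and none lower, and the share called higher was again near the 9.93% of all genes. By direction the list differed from all genes, with 15 of 17 positive (median 0.43) against 50.4% positive (median 0.006). The 2 called were Cpt1a, the carnitine transferase that admits fatty acids to mitochondria, at 14.3, 15.8, 42.2 and 26.0 FPKM, and Acadvl, the very long chain dehydrogenase, at 38.2, 41.1, 80.6 and 52.1 FPKM. Among 16 other measured LXR targets and sterol handling genes 3 were called higher and none lower, where 9.93% of all genes were higher and 6.24% lower. Of the 16, 13 had a positive difference, where 50.4% of all genes were positive. The 3 negative ones included Scarb1 (-0.94) and Lpcat3 (-0.50), which are named after their values were seen. Ch25h, which makes 25-hydroxycholesterol, an oxysterol known to hold back SREBP processing, stood at 11.5, 11.3, 54.4 and 5.59 FPKM. Smpdl3a, an LXR target, stood at 7.62, 7.38, 25.5 and 9.79 FPKM, and Cyp27a1, which makes 27-hydroxycholesterol, at 0.79, 0.653, 3.58 and 0.535 FPKM. These 3 were named for the largest differences of the list between G3 Terc-/- and wild type, so their peak in G3 Terc-/- follows from the choice. They were also the 3 of 16 called lower in the dKO library than in G3 Terc-/-, where 4.78% of all genes were lower. Both comparisons use the G3 Terc-/- library. The part of these genes in the values of the synthesis genes was not tested.

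Other gene lists differed between the same libraries. Over all measured genes 6.24% were called lower and 9.93% higher in G3 Terc-/- than in wild type. Of 10 mitotic genes 10 were called lower in G3 Terc-/- than in wild type (median -2.50), and their summed FPKM was 325, 311, 51.2 and 132. Of 9 measured interferon-stimulated genes all 9 were called higher (median 4.31), with sums over the list of 10 of 94.3, 159.7, 1589 and 137 FPKM. Fibroblast markers had 2 of 9 called lower, with sums of 11319.6, 12011, 5713 and 10277 FPKM. The adipocyte markers, carried mostly by Fabp4, summed to 8.62, 11.6, 35.3 and 14.1 FPKM. Pparg and Cebpa, the other measured genes of that list, were both lowest in the library labelled G3 Terc-/-. The part of any of these lists in the values of the sterol and fatty acid genes was not tested. In bulk RNA, fewer cells with a transcript and less transcript per cell cannot be told apart.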

How the data were processed

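RNA of 4 fibroblast libraries, 1 per genotype, was measured as FPKM, which the authors deposited as 1 value per gene symbol and library. The submitters' processing notes list TopHat2 2.1.1, Cufflinks 2.2.1 and the build mm9, with no role for each. Annotation and strand setting are not given in the sources used here. Because FPKM divides by mapped fragments, very abundant transcripts lower all other values slightly.

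From the deposited FPKM, 735 short RNA symbols were left out and 22500 compared, of which 11590 had a mean of 1 FPKM or more. Differences are of log2(FPKM + 1), with a pseudocount of 1 FPKM that shrinks differences of low genes. No model was fitted, since no genotype has a second library. Depth was estimated from values up to 0.05 FPKM of genes with 1 GENCODE transcript of 1500 to 8000 nt less a fragment of 200 nt, 73.5% to 78.3% of which lay within 0.1 of a whole fragment. The commonest step set the estimate, so that share is no independent check. Fragments behind a value use the gene's longest GENCODE M21 transcript and are approximate. Median-of-ratios size factors were 0.977 to 1.01. Sequences are from RefSeq (GRCm38.p6), which held 29 of the 38 genes; no coordinates of it were joined to the mm9 values. The calculation was tested on simulated libraries. Alternatives were pseudocounts of 0.1 and 0.5 FPKM, no filter, a filter at 5 FPKM, median-of-ratios scaling and quantile normalization.

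The 38 genes and the companion lists were chosen with earlier results of these data known. All 38 are described. Of each companion list, the genes with the largest differences between G3 Terc-/- and wild type, or between the G3 libraries, may be named, and some of these are not reported here. Python 3.11.15, pandas 2.3.3, numpy 2.4.6 and matplotlib 3.10.9 were used.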

Additional observations from a re-analysis of the deposited data

Results flagged for a closer look

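For 13 members the difference that goes with the Gadd45 label pointed in opposite directions with and without G3 Terc deficiency, and the double difference was 1 or more in size. Of all measured genes 1.92% had a double difference of 1 or more and 5.90% one of -1 or less, whatever their directions. Without Terc deficiency none of the 13 was called, with differences from -0.41 (Tm7sf2) to 0.019 (Abcg1). In the mevalonate arm these were Mvk (1.13), Pmvk (1.22), Mvd (1.18) and Idi1 (1.09). In the sterol arm they were Lss (1.12), Cyp51 (1.19) and Tm7sf2 (1.12), and among the regulators Insig1 (1.33). The fatty acid genes were Elovl6 (1.19), Scd1 (1.01), Scd2 (1.46) and Fads2 (1.23). Abcg1 (-1.04) was the one with a negative double difference. Each direction rests on 1 library per genotype, and the difference between the settings was not tested. The double difference also holds the G3 Terc-/- and wild-type values compared before, so it is no separate support. The library labelled Gadd45-/- also differed from the others in sex.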

How the results depend on the processing

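No paired analysis was possible because each genotype has 1 library, and no library could be left out for the same reason. Of 96 recomputed counts of called members 89 stayed within 1.5 times of the value reported. Between G3 Terc-/- and wild type, 2 members instead of 1 were called higher with a pseudocount of 0.1 FPKM. Between G3 dKO and G3 Terc-/-, the member called lower, Abcg1, was lost (0 called) with the filter at 5 FPKM, with median-of-ratios scaling and with quantile normalization. In the same comparison 1 sterol synthesis gene, instead of 0, was called higher with a pseudocount of 0.1 FPKM and with either scaling. With the filter at 5 FPKM the median of the LXR and efflux genes, then 2 genes, changed side, to -0.13 for Gadd45-/- against wild type, -0.024 for G3 Terc-/- against wild type and 0.17 for G3 dKO against G3 Terc-/-. With median-of-ratios scaling the near-zero differences of Srebf1 (Gadd45-/- against wild type) and Abca1 (G3 dKO against Gadd45-/-) changed sign. Counts over all genes grew by over 1.5 times with a pseudocount of 0.1 FPKM, to 124 higher and 58 lower for Gadd45-/- against wild type (39 and 23 as reported), 344 higher for G3 dKO against G3 Terc-/- (176) and 520 and 446 for G3 dKO against Gadd45-/- (289 and 272). For Gadd45-/- against wild type, 64 were higher with 0.5 FPKM, and 25 higher and 11 lower with the filter at 5 FPKM. That filter left 698 genes higher for G3 Terc-/- against wild type (1151), 334 lower for G3 dKO against G3 Terc-/- (554) and 176 higher for G3 dKO against Gadd45-/- (289). Quantile normalization gave 273 higher for G3 dKO against G3 Terc-/-. Medians of sterol and fatty acid synthesis genes kept their side in all 4 comparisons under the 6 alternatives. Depth limits Nr1h3, with 11.2 to 44.0 fragments, more than any other member above 0. Hmgcs1, listed at 0, gives no value under any setting.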
